A study of Mus musculus with 6 samples.

Results

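Classical protein tyrosine phosphatases (PTPs) are the phosphatases that remove phosphate from tyrosine through a catalytic cysteine in a conserved domain. They were taken as every gene whose symbol is Ptpn with a number, the non-receptor type, or Ptpr with a letter, the receptor type, in the annotation of the array. This gave 37 genes of the 19938 with a probe set of their own, 17 of the non-receptor and 20 of the receptor type. They were covered by 50 probe sets, and each gene was read from the probe set with the highest mean over all arrays. The expression data came from 6 samples of mouse pre-B cells that had been transformed with BCR-ABL1, a fused, constantly active tyrosine kinase that drives Philadelphia-positive acute lymphoblastic leukemia. The ETS-family transcription factor gene Etv5 was wild type in 3 samples and knocked out in 3. All were of strain 129SvEv and carried BCR-ABL1. Total RNA was hybridised to 1-colour Affymetrix arrays, and values are log2 signals. Whether samples of one genotype are from different animals or cultures is not labelled, so every p-value rests on the spread among these samples and that spread may be technical. The labels do not describe the knockout allele.

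Receptor-type PTPs span the membrane and often carry a pair of phosphatase domains, of which the one nearest the membrane does most of the catalysis. Non-receptor PTPs are directed to their substrates by other domains, such as the SH2 domains of SHP-1 and SHP-2, the FERM domains of Ptpn14 and Ptpn21 or the proline-rich tails of the PEST group. In B lineage cells CD45 (Ptprc) activates Src-family kinases by removing an inhibitory phosphate, SHP-1 (Ptpn6) is recruited by inhibitory receptors and dampens antigen receptor signalling, and SHP-2 (Ptpn11) promotes RAS-ERK signalling. A kinase such as BCR-ABL1 phosphorylates tyrosines without a ligand, and PTPs remove that phosphate.

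The array medians lay between 7.79 and 7.84. Arrays of a genotype correlated at r = 0.9939 to 0.997 and arrays of different genotypes at 0.991 to 0.9941, over probe sets, which are not replicates. One probe set annotated to Etv5 fell by 0.43 in the knockout, from a mean of 9.37 to 8.93 (limma adjusted p = 0.0467). Another, brighter one was higher by 0.28, at 11.49 against 11.76, and did not pass (adjusted p = 0.13). The probe sets annotated to the targeted gene thus differed in opposite directions. The brighter one is numbered between those of Ptprk and Ptprr, genes of chromosome 10, which does not carry Etv5. Whether it measures Etv5 was not tested, so its rise is not read as a rise of Etv5. Whether either probe set lies in the deleted part is not known. Of 14 B cell precursor markers 13 were measured, and their mean signals ran from 9.31 to 14.27. Of these, Pax5 rose, Vpreb2 and Dntt fell and 10 did not pass; their summed log2 signal ran from 159.8 to 160.5 on wild-type and from 159.5 to 160.8 on knockout arrays. Among 11 myeloid markers Itgam and Ly6g rose, by 0.60 and 1.14, and the other 9 did not pass. Ly6g was dim, with means of 6.55 in wild-type and 7.69 in knockout samples. The summed log2 signal of the list ran from 77.1 to 78.2 on wild-type and from 78.3 to 80.4 on knockout arrays. The median change of the list was -0.0029, so no rise of the list as a whole is read from the sum. The 8 T cell markers, 6 measured erythroid and megakaryocyte markers and 8 stromal and endothelial markers held no gene that passed, and their summed signals overlapped between the genotypes. Array signals have no true zero and no detection calls were used, so no marker and no phosphatase could be called absent. In bulk samples, fewer cells of a type and less RNA per cell cannot be told apart.

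Of the 37 phosphatase genes, 3 were called as changed between the genotypes. Ptpn14, a non-receptor PTP with a FERM domain that is known to restrain the growth-promoting factor YAP, fell 2.09-fold. Ptpre, the receptor-type PTP epsilon, fell 1.47-fold, and Ptpn6, encoding SHP-1, rose 1.22-fold. The call of Ptpn6 was less stable than the others, as it was lost whichever of the 6 samples was left out. By limma, with Benjamini-Hochberg adjustment over all 35556 probe sets at 0.05, 1 of the 37 was thus higher and 2 were lower in the knockout. The share, 8.11%, stands beside 4.43% of all 19938 genes called in either direction, 2.42% higher and 2.01% lower. By type, 1 of 20 receptor genes and 2 of 17 non-receptor genes were called. The median change of the family was -0.0070, beside -0.0039 over all genes, and the median size of the change regardless of direction was 0.070, beside 0.061. The spread between samples was also near that of other genes, with median SDs of 0.061 (wild type) and 0.069 (knockout) against 0.071 and 0.087 over all genes.

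**Figure D1:**
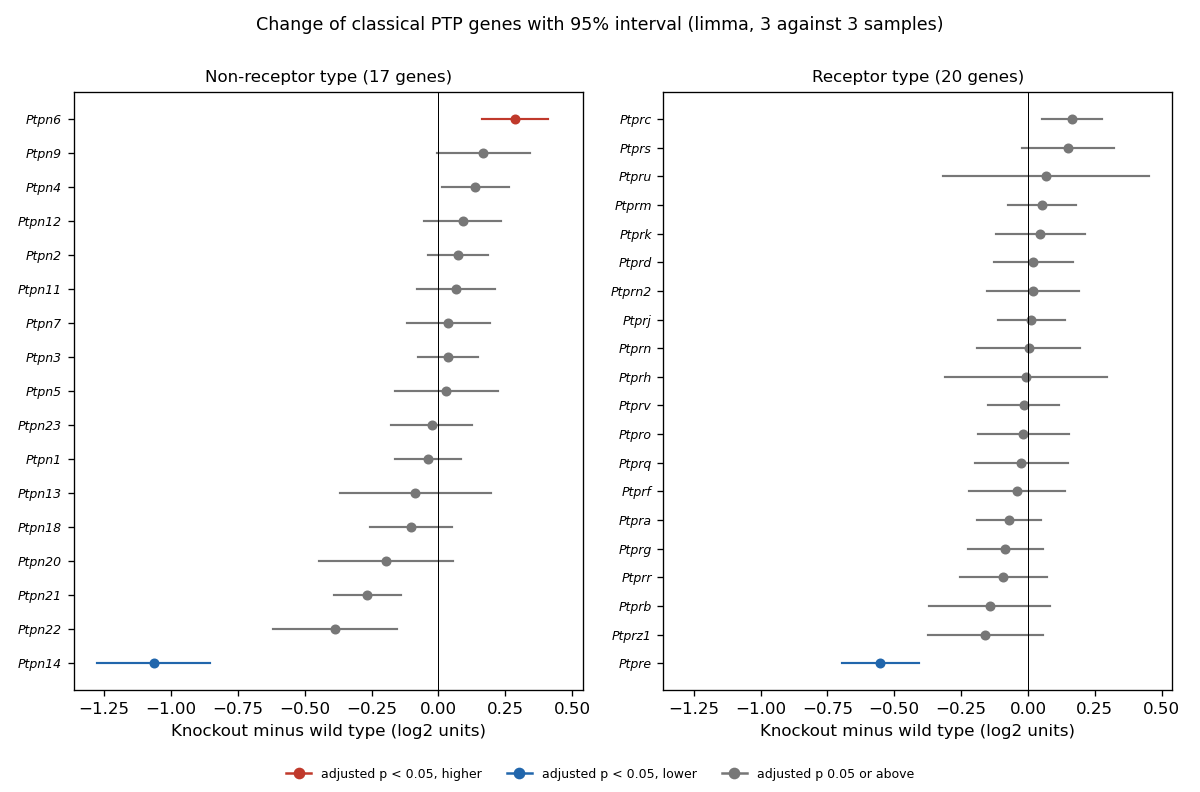
Change of each classical PTP gene (knockout minus wild type, log2 units, horizontal axis) with its 95% interval from limma, non-receptor genes on the left and receptor genes on the right, 3 samples per genotype. Ptpn14 (-1.07) and Ptpre (-0.55) lie below 0 and Ptpn6 (0.29) above it in colour; the other 34 genes, in grey, lie between -0.39 and 0.17.

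The promoters of the 3 called genes are shown because Etv5 belongs to a family of factors that bind the DNA core GGAA. They are the 250 bases before each start site in RefSeq (build GRCm38.p6), 5′ to 3′ on the gene's strand, and capitals mark GGAA or its reverse complement TTCC. Ptpre has 3 listed starts. The gene is known to give a membrane-bound and a cytosolic form from different starts, and its single probe set does not tell them apart. Which start these cells use was not measured for any of the 3 genes, and a start in use may be missing here.
Ptpn14, chr1:189728018-189728267, plus strand: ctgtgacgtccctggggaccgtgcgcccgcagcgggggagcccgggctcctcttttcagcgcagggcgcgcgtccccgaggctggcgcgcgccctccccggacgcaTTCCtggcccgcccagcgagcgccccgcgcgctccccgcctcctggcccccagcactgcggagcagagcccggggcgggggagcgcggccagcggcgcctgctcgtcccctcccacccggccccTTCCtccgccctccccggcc
Ptpn6, chr6:124738710-124738959, minus strand: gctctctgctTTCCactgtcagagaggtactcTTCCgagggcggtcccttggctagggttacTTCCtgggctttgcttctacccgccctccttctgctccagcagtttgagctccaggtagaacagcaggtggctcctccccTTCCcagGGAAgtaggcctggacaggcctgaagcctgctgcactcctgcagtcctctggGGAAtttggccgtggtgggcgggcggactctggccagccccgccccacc
Ptpre, start 1, chr7:135537574-135537823, plus strand: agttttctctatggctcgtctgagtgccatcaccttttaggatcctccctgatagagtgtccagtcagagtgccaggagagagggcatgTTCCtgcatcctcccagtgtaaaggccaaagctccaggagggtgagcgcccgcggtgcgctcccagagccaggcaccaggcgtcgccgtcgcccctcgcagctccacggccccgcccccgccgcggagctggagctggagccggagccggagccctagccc
Ptpre, start 2, chr7:135593231-135593480, plus strand: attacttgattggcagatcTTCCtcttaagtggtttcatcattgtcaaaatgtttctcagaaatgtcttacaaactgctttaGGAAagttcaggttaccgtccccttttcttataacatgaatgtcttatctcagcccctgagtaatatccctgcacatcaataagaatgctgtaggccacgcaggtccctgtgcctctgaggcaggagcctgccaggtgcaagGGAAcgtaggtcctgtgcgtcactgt
Ptpre, start 3, chr7:135605578-135605827, plus strand: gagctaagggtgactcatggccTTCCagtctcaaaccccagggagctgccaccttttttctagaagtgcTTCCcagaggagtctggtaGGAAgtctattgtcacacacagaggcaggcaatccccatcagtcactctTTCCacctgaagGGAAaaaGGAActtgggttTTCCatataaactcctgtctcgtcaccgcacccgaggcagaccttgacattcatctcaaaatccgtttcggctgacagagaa
The core occurs 2 times in the Ptpn14 window, 6 times in that of Ptpn6 and 1, 3 and 7 times in those of Ptpre. It is short, and 93.4% of 32851 promoter windows of this length hold it at least once, with a mean of 2.91 matches. The longer motif CCGGAA, which contains the core, was in 0 of these 5 windows, in 4 of the 45 windows of 31 family members with an entry and in 12% of all windows. The 4 were those of Ptpn3, Ptpn11, the second start of Ptpn21 and the second start of Ptprg. CCGGAAGT, which contains both, was in none of the 45 windows and in 2.88% of all. Both strands were searched for each motif. A match in these windows is a description of letters and not a binding site.

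Ptpn14 gave 9.48, 9.50 and 9.53 in wild-type samples, against 8.55, 8.51 and 8.25 in knockout samples. The groups lay far apart, and knockout sample 3 was the lowest. The change was -1.07 ± 0.087 (SE, log2; 95% interval -1.28 to -0.85; limma adjusted p = 0.00219). A change of at least 1 log2 unit that passed was seen in 1.02% of all genes, and in the family for Ptpn14 alone. Its closest relative is Ptpn21, which has the same arrangement of an amino-terminal FERM domain and a carboxy-terminal phosphatase domain and is known as a binding partner of Src and Tec-family kinases. Ptpn21 gave 8.003, 8.022 and 8.028 on wild-type arrays, against 7.685, 7.783 and 7.787 on knockout arrays. These values did not overlap either, and the difference was -0.27 ± 0.052 (95% interval -0.39 to -0.14), just short of the threshold (limma adjusted p = 0.0591).

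Ptpre encodes PTP epsilon, which has a short extracellular part and, like its relative PTP alpha, is known to act on Src-family kinases. Its signals were 9.16, 9.14 and 9.22 on wild-type arrays, against 8.55, 8.70 and 8.61 on knockout arrays. All knockout samples lay below all wild-type samples, and the fall was -0.55 ± 0.060 (SE, log2; 95% interval -0.70 to -0.41; limma adjusted p = 0.00607). Ptpra, encoding PTP alpha, gave 11.05, 11.06 and 10.99 against 10.94, 11.00 and 10.95. Those groups overlapped, with a difference of -0.07 (95% interval -0.19 to 0.05, adjusted p = 0.78).

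Ptpn6 gave 11.34, 11.40 and 11.37 on wild-type arrays, against 11.64, 11.71 and 11.61 on knockout arrays. SHP-1, its product, is found throughout the blood lineages, and its loss leads to overactive myeloid and B cell signalling. The groups did not overlap and the rise was 0.29 ± 0.052 (SE, log2; 95% interval 0.16 to 0.41; limma adjusted p = 0.0437). The call was lost whichever of the 6 samples was left out, with adjusted p-values from 0.103 to 0.197 and changes from 0.26 to 0.31; over all alternatives the adjusted p ran from 0.0079 to 0.197. With the sample number as a block the adjusted p was 0.163. The myeloid markers Itgam and Ly6g were higher in the same samples, and the other 9 of the 11 myeloid markers did not pass, with log2 differences from -0.32 (Lyz2) to 0.34 (Cd68); their part in the rise of Ptpn6 was not tested. The sister gene Ptpn11, encoding SHP-2, gave 11.67, 11.71 and 11.64 on wild-type arrays, against 11.70, 11.83 and 11.69 on knockout arrays. These values overlapped and differed by 0.07 (95% interval -0.08 to 0.21, adjusted p = 0.862).

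**Figure D2:**
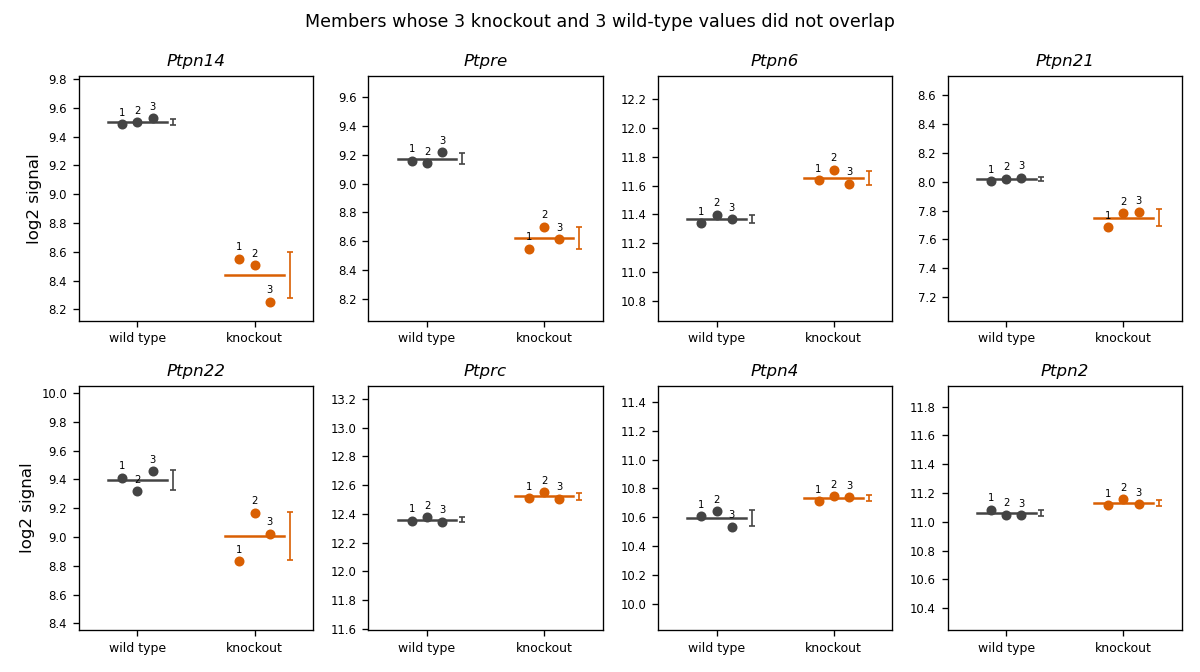
Log2 signal (vertical axis, a range of 1.7 log2 units in every panel) of the 8 members whose groups did not overlap, by genotype. Points are samples with their number, horizontal lines the mean of 3 and bars the SD; Ptpn14 drops from 9.50 to 8.44 and Ptpre from 9.17 to 8.62, while Ptpn2 moves from 11.06 to 11.13.

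In 8 of the 37 genes (21.6%) no knockout value overlapped the wild-type range, beside 20.5% of all genes (10.2% higher and 10.2% lower). Besides Ptpn14, Ptpre, Ptpn6 and Ptpn21 these were Ptpn22, Ptprc, Ptpn4 and Ptpn2, and 4 of the 8 were higher and 4 lower. At an unadjusted limma p under 0.05 there were 7 members, against 13.4% of all genes. Ptpn22, the lymphoid PEST phosphatase that works with the kinase CSK to hold Src-family kinases in check, gave 9.41, 9.32 and 9.46 on wild-type arrays, against 8.83, 9.17 and 9.02 on knockout arrays. The difference of -0.39 ± 0.095 (95% interval -0.62 to -0.16) did not pass (limma adjusted p = 0.131), and the knockout samples spread more than the wild-type ones (SD 0.17 against 0.072). Ptprc, encoding CD45, gave 12.35, 12.38 and 12.35 against 12.51, 12.55 and 12.51. The samples of each genotype were close together, and the difference of 0.16 ± 0.046 (95% interval 0.05 to 0.28) did not pass (adjusted p = 0.198). Ptprcap, which encodes a protein associated with CD45 and is no phosphatase, differed by 0.09 (adjusted p = 0.768). Ptpn4, a FERM and PDZ phosphatase, differed by 0.14 (adjusted p = 0.387). Ptpn2, encoding the T cell protein tyrosine phosphatase TC-PTP that acts on JAK kinases and STAT factors, differed by 0.07 (adjusted p = 0.737); its second probe set gave -0.07 (adjusted p = 0.876).

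Relatives within the family were set against each other by the difference of their log2 signals on each array, for 4 pairs chosen with the values known. The change of Ptpre was lower than that of Ptpra by -0.48 log2 units, that of Ptpn22 lower than that of its PEST relative Ptpn12 by -0.48 and that of Ptpn14 lower than that of Ptpn21 by -0.80. The change of Ptpn6 was higher than that of Ptpn11 by 0.22. The knockout and wild-type differences did not overlap in these 4, which the choice of pairs favoured. The two-sided exact permutation test gave p = 0.1 for each, which is the smallest that 3 samples against 3 allow, so the design cannot place these differences under 0.05; adjusted over the 4 pairs the values were also 0.1.

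None of the other non-receptor genes passed limma. Ptpn1, encoding PTP1B, an endoplasmic reticulum phosphatase of the insulin receptor and JAK2 that also acts on BCR-ABL1, gave 10.96, 10.89 and 11.00 on wild-type arrays, against 10.91, 10.90 and 10.92 on knockout arrays. The difference was -0.04 (95% interval -0.16 to 0.08). Among the PEST group, Ptpn12 differed by 0.09 (95% interval -0.05 to 0.23) and Ptpn18, a phosphatase known to act on HER2, by -0.10 (-0.25 to 0.05). Of the phosphatases that bind MAP kinases through a kinase interaction motif, Ptpn7, the blood cell member that acts on ERK, gave 11.86, 11.85 and 11.99 against 11.90, 12.00 and 11.91. Its groups overlapped, with a difference of 0.04 (95% interval -0.12 to 0.19). The brain member Ptpn5 and the receptor-type member Ptprr differed by 0.03 and -0.09, and neither passed. Ptpn9, whose SEC14 domain places it on secretory vesicles, differed by 0.17 (95% interval -0.01 to 0.34, limma adjusted p = 0.477), and Ptpn23, an endosomal sorting protein, by -0.02.

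Ptpn3, the FERM and PDZ relative of Ptpn4, was covered by 12 probe sets, whose changes ran from -0.07 to 0.09; 0 of the 12 passed limma and the smallest adjusted p was 0.779. The large FERM and PDZ phosphatase gene Ptpn13 and the testis gene Ptpn20 showed differences of -0.09 and -0.20 (adjusted p = 0.935 and 0.624). Both lay among the dimmest 40% of probe sets, as did 9 of the receptor genes.

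Among the 20 receptor-type genes, Ptpre was the one that passed, and the other 19 ranged from -0.16 to 0.16. Ptprj, encoding CD148, which acts on Src-family kinases in B cells beside CD45, gave 11.64, 11.63 and 11.64 on wild-type arrays, against 11.63, 11.71 and 11.60 on knockout arrays. Its groups overlapped, with a difference of 0.01 (95% interval -0.11 to 0.14), and its second probe set gave the same 0.01. Ptprs, a receptor for heparan and chondroitin sulfate of the LAR group, gave 10.44, 10.49 and 10.56 against 10.55, 10.76 and 10.63. The difference was 0.15 (95% interval -0.02 to 0.32, limma adjusted p = 0.549). Its LAR relatives Ptprf and Ptprd differed by -0.04 and 0.02.

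The adhesive receptors with a MAM domain, Ptprk, Ptprm and Ptpru, differed by 0.05, 0.05 and 0.07. Ptpru varied widely between samples, from 7.13 to 7.65 on wild-type and 7.32 to 7.68 on knockout arrays, and its 95% interval ran from -0.32 to 0.45. Of the receptors with fibronectin repeats besides Ptprj, the endothelial gene Ptprb differed by -0.14, Ptprh by -0.01, the podocyte gene Ptpro by -0.02, the hair cell gene Ptprq by -0.02 and Ptprv by -0.02. The carbonic anhydrase-like receptors Ptprg and Ptprz1, which bind contactins, differed by -0.08 and -0.16, and Ptprz1, known from glia, had a wild-type signal of 4.98 ± 0.14 and a knockout signal of 4.82 ± 0.088 (SD, n = 3 each). The pair of secretory granule proteins Ptprn and Ptprn2, which lack normal phosphatase activity, differed by 0.00 and 0.02. None of these genes passed limma (adjusted p 0.659 or above), and at an unadjusted p under 0.05 the receptor genes were Ptpre and Ptprc. Across the 11 members among the dimmest 40% of probe sets the changes ran from -0.20 to 0.05, 0 passed limma, 0 had an unadjusted p under 0.05 and 0 had groups that did not overlap. With no detection calls, the absence of a call in these 11 carries little information on the genes themselves.

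**Figure D3:**
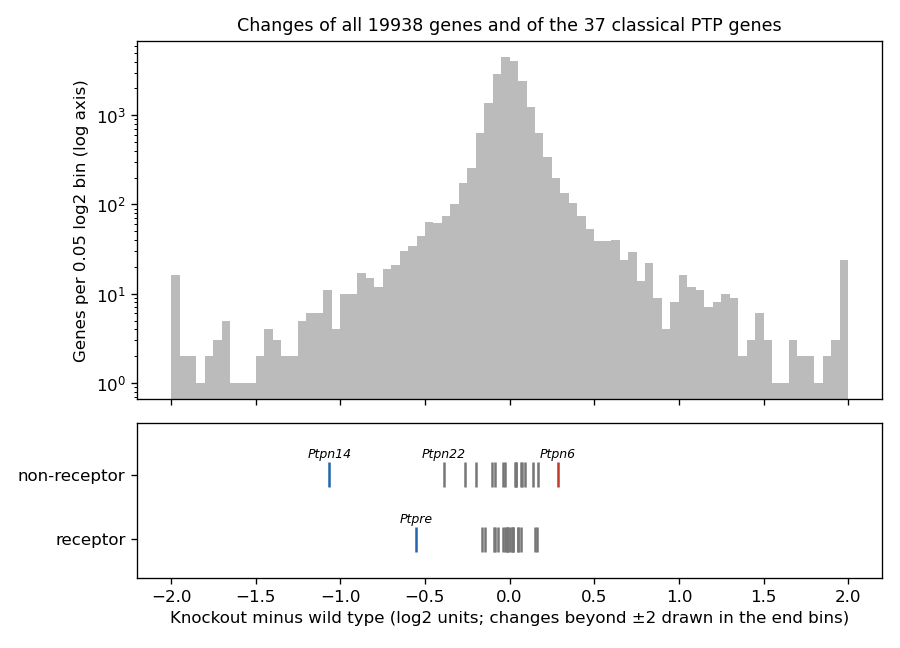
Upper panel, the number of genes (vertical log axis) in bins of knockout minus wild type log2 change (horizontal axis) over all 19938 genes. Lower panel, 1 tick for each of the 37 members by type, with Ptpn14 at -1.07, Ptpre at -0.55 and Ptpn6 at 0.29 in colour; 32 of the 37 lie within 0.2 of 0.

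Genes around the phosphatases were read from 6 lists, which held 192 genes, 179 of them measured. Of these 17 rose, 9 fell and 153 did not pass, a share called of 14.5% beside 4.43% of all genes, and the median change was 0.012. By list the share ran from 5.77% in that of the wider PTP superfamily to 34.8% in that of receptors with inhibitory motifs. Both lists hold some genes outside the class they are named for, as given below. The lists were chosen with earlier results known, and nothing particular to them is read from these shares.

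Genes listed as receptors with inhibitory tyrosine motifs, the docking sites of SHP-1 and SHP-2, changed in both directions. Of 23 measured, with Fcrla and Fcrl1 counted among them, 5 rose, 3 fell and 15 did not pass, with a median change of 0.02. Siglecg, a sialic acid-binding inhibitory receptor of B cells, gave 8.60, 8.72 and 8.68 on wild-type arrays, against 10.48, 10.73 and 10.65 on knockout arrays, a rise of 1.95 ± 0.079 (SE, log2; limma adjusted p = 0.00019). All its knockout samples lay more than 1 log2 unit above the wild-type ones. Fcgr2b, the inhibitory Fc receptor gene, rose by 0.60 (adjusted p = 0.00553) and Pecam1, an adhesion molecule with such motifs, by 0.46 (adjusted p = 0.00811). Fcrla rose by 1.23 (adjusted p = 0.00433); it is a related intracellular protein without a cytoplasmic signalling tail, so it is not itself a docking site. Fcrl1, an Fc receptor-like protein that mostly activates B cells, fell by 0.63 and Cd5, which restrains antigen receptor signalling, by 0.72 (adjusted p = 0.00901 and 0.0156). Clec12a, an inhibitory lectin of myeloid cells, fell by 0.94 and Sirpa, the CD47 receptor, rose by 0.31 (adjusted p = 0.0198 and 0.0433). Clec12a was dim, with means of 7.11 in wild type and 6.17 in knockout. Both lie under 7.32, the log2 limit of the dimmest 40% of probe sets. When 1 sample was left out, Sirpa lost its call in all 6 fits, Cd5 and Clec12a in 4 each and Pecam1 in 1 (highest adjusted p 0.184, 0.0702, 0.0932 and 0.0518). Siglecg, Fcrla, Fcgr2b and Fcrl1 were called in all 6.

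Of 21 measured SHP-2 adaptors and RAS entry genes, 4 rose and 0 fell, 17 did not pass and the median change was 0.0045. Irs2, the insulin and cytokine receptor substrate that SHP-2 binds, gave 8.04, 8.21 and 8.25 on wild-type arrays, against 9.20, 9.23 and 9.31 on knockout arrays. Its groups were about 1 log2 unit apart (change 1.08 ± 0.074, limma adjusted p = 0.00116). The docking proteins Gab3 and Gab1 rose by 0.65 and 0.41 (adjusted p = 0.00805 and 0.0252), whereas Gab2, the family member known for binding GRB2 on BCR-ABL1, differed by 0.18 (adjusted p = 0.451). The RAS inhibitor Spred1 rose by 0.27 (adjusted p = 0.0478). Without 1 sample, Spred1 lost its call in all 6 fits, Gab1 in 5 and Gab3 in 1 (highest adjusted p 0.178, 0.113 and 0.0505).

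In the list of the CD45, CSK and PEST phosphatase axis, 3 of 28 measured genes rose and 2 fell, with 23 not passing. The Src-family kinase gene Blk, a substrate of CD45, rose by 1.03 (limma adjusted p = 0.00203). The kinase genes Syk and Zap70 rose by 0.34 and 0.33 (adjusted p = 0.0265 and 0.047). Pstpip2, which binds PEST phosphatases, fell by 0.30 and Was, the actin regulator that binds their partner Pstpip1, fell by 0.37 (adjusted p = 0.0345 and 0.0349). Leaving out 1 sample removed the call of Syk, Zap70 and Pstpip2 in all 6 fits and that of Was in 5 (highest adjusted p 0.117, 0.183, 0.152 and 0.147), and of Blk in 0.

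Among JAK-STAT members and receptor kinases that PTP1B, TC-PTP or SHP-1 dephosphorylate, Igf1r and Tyk2 fell and Flt3 rose, and 18 of 21 did not pass. Igf1r, the receptor of insulin-like growth factor, gave 10.04, 10.07 and 10.17 on wild-type arrays, against 8.41, 8.40 and 8.40 on knockout arrays (change -1.69 ± 0.054, limma adjusted p = 9.8e-05). Tyk2, the JAK kinase of interferon and interleukin receptors, gave 10.67, 10.67 and 10.73 against 9.26, 9.43 and 9.39 (change -1.33 ± 0.062, adjusted p = 0.000313). In both genes the groups lay over 1 log2 unit apart. The progenitor receptor kinase gene Flt3 rose by 1.27 (adjusted p = 0.00192). All 3 were called in each fit that left out 1 sample.

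Of 34 ligands and partners of receptor-type PTPs, 2 rose, 1 fell and 31 did not pass. Lgals1, encoding galectin-1, a lectin that binds CD45, gave 8.57, 8.71 and 8.60 on wild-type arrays, against 11.60, 11.87 and 11.69 on knockout arrays (change 3.10 ± 0.085, limma adjusted p = 6.46e-05). Sdc4, a heparan sulfate proteoglycan of the kind that binds LAR-group receptors, rose by 0.84 (adjusted p = 0.0015), and Ctnnd1, encoding p120 catenin, fell by 0.36 (adjusted p = 0.0321). The fall of Ctnnd1 lost its call in 5 of the 6 fits without 1 sample (highest adjusted p 0.152).

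The list of the PTP superfamily outside the classical group, with dual-specificity, CDC25, myotubularin and related phosphatases, held 52 measured genes. Of these 2 rose, 1 fell and 49 did not pass. The pair of UBASH3 histidine phosphatases, counted in this list although they are not cysteine-based, moved in opposite directions. Ubash3b gave 8.29, 8.18 and 8.16 on wild-type arrays, against 8.85, 9.08 and 8.92 on knockout arrays, a rise of 0.74 ± 0.078 (SE, limma adjusted p = 0.00541). Ubash3a, the lymphoid form, gave 9.67, 9.59 and 9.67 against 8.86, 9.15 and 8.99, a fall with a log2 change of -0.64 ± 0.083 (adjusted p = 0.0122). Neither pair of groups overlapped. The dual-specificity phosphatase gene Dusp3 rose by 0.37 (adjusted p = 0.0492). Leaving out 1 sample removed the call of Dusp3 in all 6 fits and of Ubash3a in 3 (highest adjusted p 0.202 and 0.0683), and of Ubash3b in 0.

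**Figure D4:**
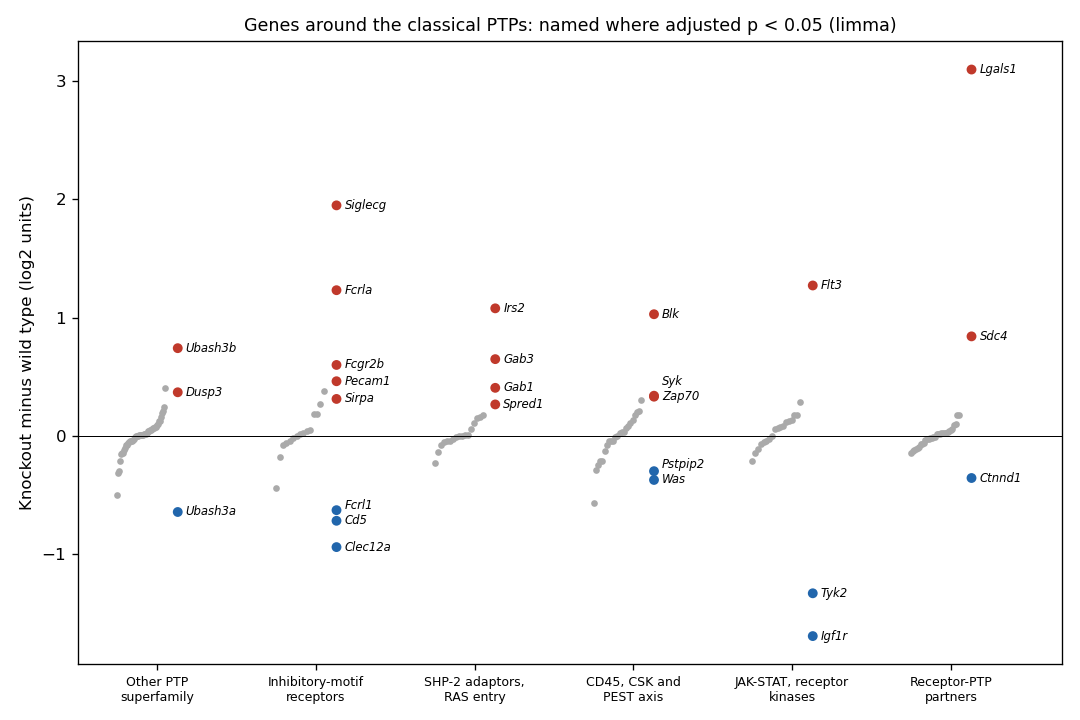
Change (knockout minus wild type, log2 units, vertical axis) of the genes of 6 lists around the classical PTPs, 1 point per gene, from 3 samples per genotype. Grey points did not pass limma at an adjusted p of 0.05; named points did, from Igf1r at -1.69 to Lgals1 at 3.10, and names are moved apart where points crowd.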

How the data were processed

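The deposited table holds log2 signals of 35556 probe sets on 6 arrays; per the submitters' processing notes, the authors used RMA and Partek 6.5, with settings and filters not given in the sources used. RMA shrinks differences of dim probe sets. The number of arrays limits the precision. Groups came from the sample titles. Of the probe sets 21789 had 1 gene symbol in the platform annotation, 1621 had several and 12146 had none listed; all 37 member symbols matched the GRCm38.p6 gene table.

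The 2 genotypes were compared with limma 3.58.1 (R 4.3.3; lmFit, then eBayes), with no covariate and every probe set kept, and p-values were adjusted by Benjamini-Hochberg over the whole table (threshold 0.05). The genes named were all members, up to 6 passing genes per list and Clec12a, Sirpa and Gab2, chosen with their values seen. Members and lists were chosen with earlier results of these data known. Of 192 list genes, 179 had a single-gene probe set. In simulated data of 35556 probe sets with independent normal noise, 100 were shifted by 0.5 log2 units, 100 by 1 and the rest by none. Of these shifts 39 and 71 were found, with 2.65% of the calls false. The real table gave 1095 calls, a different setting, so these shares need not hold for the real comparison. As 15 alternatives, the comparison was rerun with sample number blocked, without the dimmest 40%, with single-gene probe sets only, 3 normalizations, array weights, a trended prior with robust settings, probe-set means and each sample omitted.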

Additional observations from a re-analysis of the deposited data

How the results depend on the processing

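Ptpn14 and Ptpre were called lower in all 15 alternatives, with changes from -1.13 to -0.97 and from -0.59 to -0.52; Ptpre came closest to the threshold with the replicate block (adjusted p = 0.0491). Ptpn6 was called in 8 of 15. Of 37 members, 5 were called with single-gene probe sets only and 2 in each fit that left out 1 sample. Keeping only single-gene probe sets changed both the number of tests and the values from which limma estimates its prior variance. Which of these added the calls was not tested. Ptpn21 passed in 3 alternatives, the dim filter (adjusted p = 0.0227), single-gene probe sets (0.0213) and array weights (0.0403). Ptpn22 passed in 2, single-gene probe sets (0.041) and quantile normalization (0.0366), and Ptprc in 1, the variance trend and robust settings together (0.021). The receptor count was 2 with the variance trend and robust settings together and 1 otherwise. The non-receptor count was 4 with single-gene probe sets only and 1 in each fit that left out 1 sample. Those fits gave 12 to 19 list genes and 565 to 857 probe sets, against 26 and 1095. They had fewer samples, and the cause of the lower counts was not tested.

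The labels do not say whether the sample numbers pair the arrays. Same-numbered deviations from the genotype means correlated at -0.12, 0.016 and 0.26, and those of unlike numbers at -0.35 to 0.31. With 3 samples per genotype these correlations cannot decide whether the numbers mark pairs. With the replicate block the non-receptor count was 1, the list count 13 and the count of all probe sets 544. Normalization moved the median change of all genes by less than 0.1. No direction of the 3 called members or 26 called list genes reversed in these alternatives. Precision on dim probe sets, 11 of the 37 members, is limited by signal over background.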

Other observations

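The genes that flank the 3 called phosphatase genes did not pass limma. On each side the 2 nearest protein-coding genes in the RefSeq gene order were taken, and all 12 had a probe set. Next to Ptpn14, the methyltransferase gene Smyd2 differed by -0.22 (adjusted p = 0.157) and the homeobox gene Prox1 by -0.20 (0.617). Both lie on the same side of Ptpn14, and in both all knockout values lay below all wild-type values. The groups of the other flanking genes overlapped, and those of 20.5% of all genes did not. On the other side of Ptpn14, the kinetochore gene Cenpf differed by -0.04 (0.941) and the potassium channel gene Kcnk2 by 0.12 (0.934). Around Ptpn6, which lies in a dense gene cluster, the prohibitin gene Phb2 differed by -0.02, the ribosome biogenesis gene Emg1 by 0.02, Grcc10 by 0.12 and Atn1 by -0.09 (adjusted p 0.616 to 0.976). Beside Ptpre, the proliferation marker Mki67 differed by -0.04, Clrn3 by -0.05, the DNA repair gene Mgmt by 0.02 and Foxi2 by -0.01 (adjusted p 0.935 to 0.996).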
